A study of Mus musculus with 3 samples.

Results

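The nuclear-encoded subunits of the mitochondrial respiratory chain were read, complex by complex, in skin mast cells of 3 developmental origins. Members were all rows of the expression table whose gene symbol began with Nduf followed by a, b, c, s or v, with Uqcr, with Cox and a digit from 4 to 8, or with Atp5, together with Sdha, Sdhb, Sdhc and Sdhd. This gave 87 of 20677 rows, 17613 of which have a symbol. They comprised 36 subunits of complex I, 4 of complex II, 8 of complex III, 15 of complex IV (Ndufa4 among them) and 15 of complex V. A further 7 were complex I assembly factors (Ndufaf1 to Ndufaf7), and 2 rows, Atp5s and Atp5sl, were read apart because their products are not subunits of the ATP synthase.

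All cells were skin mast cells sorted 1 week after birth from mice of mixed C57BL/6xCD1xFVB background that carried an EYFP reporter and a Cre recombinase, and in which a pulse of 4-hydroxytamoxifen (4'OHT) during gestation started the labelling. For the fetal HSC library (haematopoietic stem cell origin) Cre was driven by Runx1 and the pulse fell on embryonic day 9.5. For the late EMP library (erythro-myeloid progenitor) the driver was also Runx1, with the pulse on day 8.5. For the early EMP library the driver was Csf1r, with the pulse on day 8.5. Each origin had 1 library, so values carry no replicate error, differences could not be checked against replicates, and no test was made. Csf1r drove Cre in early EMP and Runx1 in both other groups, so driver and origin cannot be told apart in comparisons with early EMP.

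The respiratory chain passes electrons from NADH (through complex I) and succinate (through complex II) by way of ubiquinone to complex III, then by cytochrome c to complex IV, which reduces oxygen. Complexes I, III and IV pump protons across the inner mitochondrial membrane, and complex V, the ATP synthase, uses the return flow to make ATP. Most subunits are encoded in the nucleus and a small set in mitochondrial DNA. Degranulation and cytokine release of mast cells draw on ATP made in mitochondria.

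Values were FPKM, fragments relative to transcript length and library size, so levels of different genes may be set side by side. They summed to 640500 FPKM for fetal HSC, 614207 for late EMP and 639067 for early EMP. Sequencing depth was not stated. All 10 mast cell markers read (Kit, Fcer1a and Cpa3 among them) were above 0 in each library and summed to 215622, 180296 and 213516 FPKM in the fetal HSC, late EMP and early EMP libraries. Markers of other cells were low but uneven. Erythroid markers summed to 13.7, 15.5 and 186 FPKM, macrophage markers to 21.9, 52.6 and 76.3 FPKM and melanocyte markers to 39.7, 13.4 and 1.25 FPKM, in the same order of libraries. The lists for skeletal muscle, brown adipocytes, T cells, keratinocytes, fibroblasts and endothelium each summed to at most 15.3 FPKM in any library. Xist, the RNA that coats the inactive X chromosome, was at 52.0 FPKM in fetal HSC, 0.53 in late EMP and 25.6 in early EMP. The Y-linked Eif2s3y was at 0.35, 44.3 and 24.6 FPKM and Ddx3y at 0.32, 38.5 and 20.7 FPKM in the same libraries. Sex-linked RNA thus differed with origin, so sex and origin cannot be told apart in these comparisons. In bulk RNA of sorted cells, fewer cells with a transcript and less of it per cell cannot be told apart.

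The chain was highly and similarly expressed in mast cells of all 3 origins. The 87 rows together made up 1.62% of the summed FPKM in fetal HSC, 1.61% in late EMP and 1.56% in early EMP. Of the 87, 72 lay in the top 10% of all rows with a symbol in the fetal HSC library, which began at 36.7 FPKM. In the late EMP library 71 did (from 37.5 FPKM), and in the early EMP library 71 did (from 36.1 FPKM). At least 100 FPKM was reached by 40 members in the fetal HSC library and by 41 in each EMP library. Cox6b1 (complex IV) and Atp5f1 (complex V) were the most abundant on average, at 434 and 413 FPKM over the 3 libraries. The order of the members by level was also close: Spearman's rho across the 86 members with at least 1 FPKM in some library was 0.97 between fetal HSC and late EMP, 0.98 between fetal HSC and early EMP and 0.97 between late and early EMP. Across all 11529 features with a symbol that passed the same filter it was 0.95, 0.90 and 0.93. These are descriptions across genes of the same libraries, not tests.

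**Figure D1:**
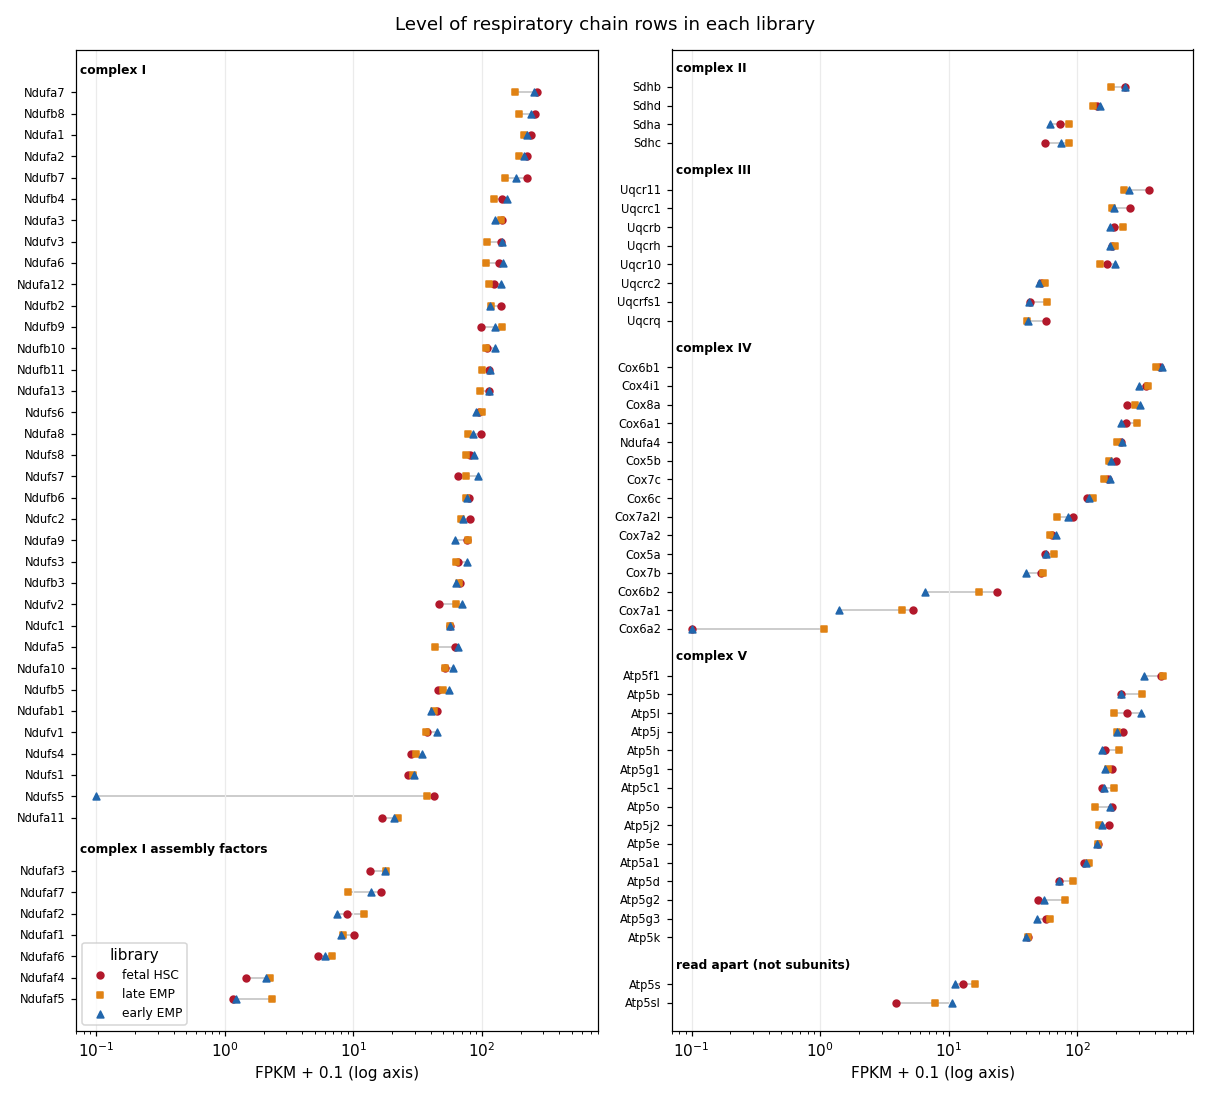
Level of 86 of the 87 members in the 3 libraries (circle, fetal HSC; square, late EMP; triangle, early EMP), as FPKM + 0.1 on a log axis, grouped by complex and ordered by mean level. The 3 symbols of most genes lie close together; Ndufs5, Cox6b2 and Cox7a1 stand out with a low early EMP value.

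Few members differed by as much as 2-fold. Differences are log2((FPKM + 1)/(FPKM + 1)), which understates the difference of low genes, and 86 of the 87 rows passed the filter of 1 FPKM in at least 1 library. The exception was Cox6a2, the heart and muscle form of a complex IV subunit, which was listed at 0 in fetal HSC, at 0.97 FPKM in late EMP and at 0 in early EMP. Between fetal HSC and late EMP, 0 of the 86 were at least 2-fold apart, against 11.7% of all 14412 features that passed the filter. Between fetal HSC and early EMP, Cox6b2, Cox7a1 and Ndufs5 were at least 2-fold higher and Atp5sl lower (4 of 86), against 26% of all features (8.19% higher and 17.8% lower). Between late and early EMP the same first 3 were higher and 0 lower (3 of 86), against 19.5% of all features (8.65% higher). Low genes scatter more: among the 3009 features with a symbol and a mean of at least 20 FPKM, 2.29%, 7.38% and 5.02% were 2-fold apart in the 3 comparisons. The members' medians were 0.04, 0.03 and -0.03 on the log2 scale, and those of all features -0.10, -0.11 and 0.00, for fetal HSC over late EMP, fetal HSC over early EMP and late EMP over early EMP.

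At the smaller size of 1.5-fold, 6 members were apart between fetal HSC and late EMP (27.9% of all features), 4 between fetal HSC and early EMP (44%) and 6 between late and early EMP (38.7%). Ndufaf7 and Uqcr11 were that much higher in fetal HSC than in late EMP, and Atp5sl, Atp5g2, Ndufaf5 and Sdhc that much lower. Between late and early EMP, Ndufaf2 and Ndufaf5 joined the 3 higher members and Atp5l was lower. Among the 3009 features with a symbol and a mean of at least 20 FPKM, fewer were 1.5-fold apart. In fetal HSC against late EMP 128 of these were higher and 199 lower. For fetal HSC over early EMP the counts were 369 and 260, and for late over early EMP 319 and 168.

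**Figure D2:**
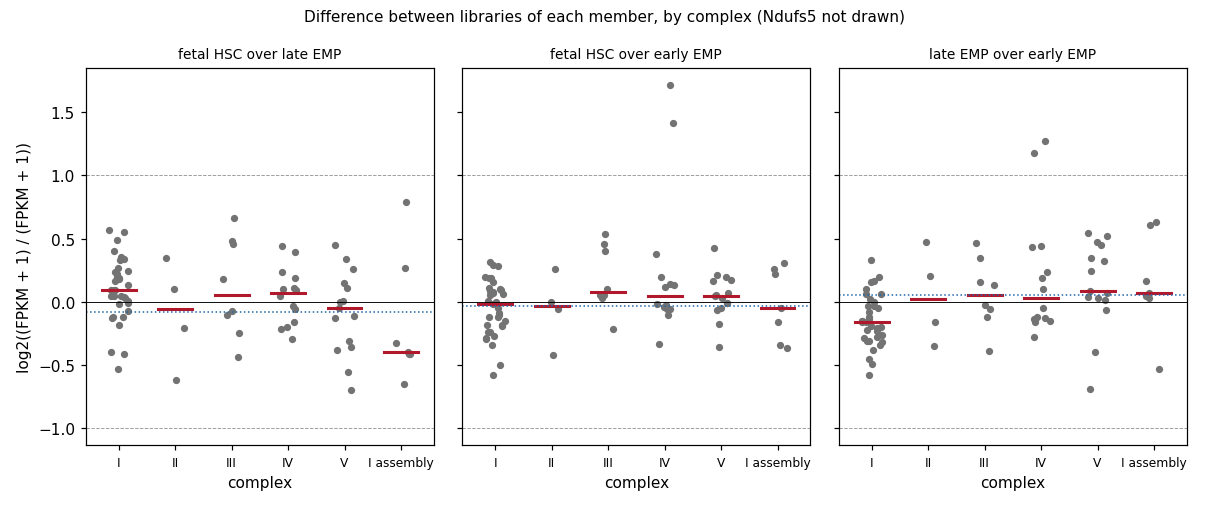
Difference of each subunit and complex I assembly factor between 2 libraries on the log2 scale, by complex (points), with the median of the complex (bar), the median of all features with a symbol (dotted line) and the 2-fold level (dashed lines). Ndufs5, listed at 0 in the early EMP library, is left out of the points and bars, as are Atp5s and Atp5sl; the points beyond 2-fold are Cox6b2 and Cox7a1 in the 2 comparisons with early EMP.

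Complex I, the NADH dehydrogenase, tended to be lowest in the late EMP library. Its 36 subunits had medians of 0.09 (fetal HSC over late EMP), -0.01 (fetal HSC over early EMP) and -0.16 (late EMP over early EMP) on the log2 scale. The late EMP value was the lowest of the 3 for 21 of the 36 subunits, or 58.3%, where it was the lowest for 22.9% of all features with a symbol and for 25.6% of those with a mean of at least 20 FPKM. With other scalings of the libraries that number ran between 15 and 26, against 19.6% and 29.1% of those features. The differences were small: the 35 subunits other than Ndufs5 lay within 0.58 of 0 in each comparison.

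The 7 nuclear-encoded core subunits, which carry the electron path, were read first. Each was lower in late than in early EMP, by 0.03 to 0.31 on the log2 scale with a median of -0.20; after rescaling the libraries to the same sum 6 of the 7 were. Ndufv1, which binds the flavin that takes electrons from NADH, was at 37.6 FPKM in fetal HSC, 36.4 in late EMP and 44.6 in early EMP. Ndufv2, its partner with an iron-sulphur cluster, was at 46.4 FPKM in fetal HSC, 62.1 in late EMP and 69.7 in early EMP, the largest difference among the core subunits (-0.58 for fetal HSC over early EMP). Ndufs7, which holds the last iron-sulphur cluster before ubiquinone, was at 65.2 FPKM in fetal HSC, 74.3 in late EMP and 92.5 in early EMP. For both genes the early EMP library was highest and the fetal HSC library lowest. Ndufs1, the large iron-sulphur subunit, was nearly even, with 26.4 FPKM in fetal HSC, 28.7 in late EMP and 29.4 in early EMP. Ndufs3 and Ndufs8 ranged from 62.7 to 86.5 FPKM. Between fetal HSC and early EMP, 6 of the 7 were lower in fetal HSC, with a median of -0.24. This count was the same under each of the 4 other scalings. Of the 3009 features with a symbol and a mean of at least 20 FPKM, 1379 were lower in fetal HSC than in early EMP. Of the same 3009, 1297 were lower in late than in early EMP.

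The 29 accessory subunits had a median of -0.15 for late over early EMP, with 19 lower and 10 higher. For fetal HSC over late EMP the median was 0.16, with 22 higher and 7 lower. Of the 3009 features with a symbol and a mean of at least 20 FPKM, 1297 were lower in late than in early EMP. Of the same 3009, 1462 were higher in fetal HSC than in late EMP. Ndufa7, the most abundant accessory subunit, was at 269 FPKM in fetal HSC, 181 in late EMP and 255 in early EMP. Ndufb8 followed the same order with 257 FPKM in fetal HSC, 195 in late EMP and 242 in early EMP, and about 13.5% of its 50-base words occur in another annotated gene. Ndufa5 was at 61.3 FPKM in fetal HSC, 43.4 in late EMP and 65.2 in early EMP. In all 3 of these genes the late EMP library was lowest and the other libraries lay close to each other. Ndufa6, Ndufb4 and Ndufv3 had the same order of late EMP lowest and early EMP highest as Ndufa5, at 107, 123 and 109 FPKM in late EMP and 146, 156 and 142 FPKM in early EMP. Ndufb9 went the other way, at 98.8 FPKM in fetal HSC, 143 in late EMP and 125 in early EMP. Ndufa11, the lowest of the complex on average, was at 16.7 FPKM in fetal HSC, 22.3 in late EMP and 20.7 in early EMP. Ndufc1 was the most even member, between 56.5 and 56.8 FPKM. The X-linked Ndufa1 was at 240.7 FPKM in fetal HSC, 211 in late EMP and 223 in early EMP. The X-linked Ndufb11 was at 112, 100.2 and 116 FPKM in the same libraries. The part of sex in these values was not tested.

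Ndufs5, an accessory subunit, was at 42.5 FPKM in the fetal HSC library and 37.5 in the late EMP library but was listed at 0 in the early EMP library. It was the only row with a symbol that was at 0 in a single library and at 20 FPKM or more in both others. The row BC002163 had the opposite pattern: it was listed at 0 in the fetal HSC and late EMP libraries and reached 85.0 FPKM in early EMP, the only row with a symbol at 20 FPKM or more there and at 0 in both others. GENCODE classes BC002163 as a processed pseudogene, and RefSeq names it Ndufs5-ps. It lies on chr16:42955580-42956079 (GRCm38), while Ndufs5 lies on chr4:123712710-123718186. In the GENCODE transcripts 196 of the 476 words of 50 bases in Ndufs5 (41.2%) occur in BC002163. Over the coding part of Ndufs5 (321 bases), 317 of 319 aligned bases were the same (99.4%), with an identical run of 214 bases. Both differences fall in the stretch shown here, coding bases 16 to 105 of Ndufs5, written 5′ to 3′ with the bases that differ in capitals in the copy.
Ndufs5: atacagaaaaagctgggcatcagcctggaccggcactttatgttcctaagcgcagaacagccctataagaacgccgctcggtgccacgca
BC002163: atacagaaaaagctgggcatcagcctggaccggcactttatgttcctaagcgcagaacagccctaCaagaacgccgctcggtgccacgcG
Summed over both rows, the level was 42.5 FPKM in fetal HSC, 37.5 in late EMP and 85.0 in early EMP. The sum was therefore lower in fetal HSC than in early EMP (log2 -0.98) and lower in late EMP than in early EMP (log2 -1.16), the reverse of the order of the Ndufs5 row. The 2 rows have different lengths, so their summed FPKM is only an approximate level of both loci. What put the reads in one row or the other was not tested. Without Ndufs5 the members at least 2-fold apart numbered 3 between fetal HSC and early EMP and 2 between late and early EMP.

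**Figure D3:**
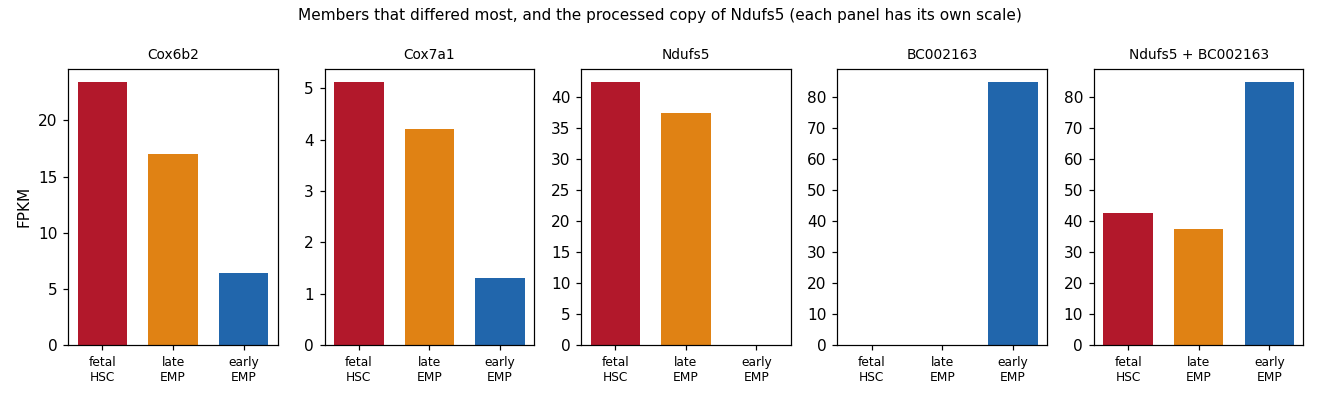
FPKM of Cox6b2, Cox7a1, Ndufs5, the Ndufs5 copy BC002163 and the sum of the last pair in the fetal HSC, late EMP and early EMP libraries, 1 bar per library with no error since each origin has 1 library; each panel has its own scale from 0. Ndufs5 and BC002163 are filled in complementary libraries, and Cox6b2 and Cox7a1 are highest in fetal HSC and lowest in early EMP.

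Of all 87 members, 48 share no 50-base word with another annotated gene and 39 share some. The overlap exceeds one word in 2 for Atp5g2 (87.4%), Atp5l (68.5%), Ndufa12 (53.8%), Cox7c (53.0%) and Atp5h (50.5%). Their levels may be less sure for that reason. These shares do not measure by how much, and the assignment of reads was not tested. With the 22 members left out that share 10% or more, the late EMP library was lowest for 17 of 27 complex I subunits, and the median for late over early EMP was -0.16. Cox7c is the other member with copies of at least 100 shared words in the table: Gm12338 was at 30.4 FPKM in fetal HSC, 9.13 in late EMP and 14.7 in early EMP, and Cox7c itself at 173, 162 and 178 FPKM in the same libraries.

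The 7 complex I assembly factors, which help build the enzyme and do not stay in it, were expressed far below the subunits and summed to 56.1 FPKM in fetal HSC, 58.3 in late EMP and 55.5 in early EMP. Their median was -0.39 for fetal HSC over late EMP, -0.05 for fetal HSC over early EMP and 0.07 for late over early EMP. Ndufaf7, a methyltransferase needed to assemble the enzyme, was at 16.4 FPKM in fetal HSC, 9.06 in late EMP and 13.5 in early EMP. Ndufaf5, which hydroxylates Ndufs7, was highest in late EMP at 2.24 FPKM, with 1.06 in fetal HSC and 1.13 in early EMP. Ndufaf3 was at 13.4 FPKM in fetal HSC, 17.96 in late EMP and 17.6 in early EMP. The late EMP library was highest for 5 of the 7 (71.4%), against 35.7% of all features with a symbol. In Ndufaf3 and Ndufaf4 (2.16 FPKM in late EMP and 2.01 in early EMP) it was nearly level with early EMP. For fetal HSC over late EMP the median of all features was -0.10. Median-of-ratios factors shifted that comparison upward by 0.13 on the log2 scale.

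Of the 2 rows read apart, Atp5sl (Dmac2 in RefSeq, a complex I assembly factor) was at 3.81 FPKM in fetal HSC, 7.69 in late EMP and 10.48 in early EMP. It was the only member at least 2-fold lower in fetal HSC than in early EMP (log2 -1.26). The summed macrophage markers, at 21.9, 52.6 and 76.3 FPKM, ran in the same order of libraries. Of the 6 markers in that sum, Cd68 (9.70, 6.44 and 17.8 FPKM) and Adgre1 (0.04, 2.18 and 0.50 FPKM) did not. The part of macrophages in the result was not tested. Atp5s (Dmac2l in RefSeq) was at 12.8 FPKM in fetal HSC, 15.9 in late EMP and 11.1 in early EMP.

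Complex II, succinate dehydrogenase, had subunits that did not move together. Sdha, the flavoprotein that oxidises succinate, was at 73.7 FPKM in fetal HSC, 85.5 in late EMP and 61.3 in early EMP, so late EMP was highest. Sdhb, the iron-sulphur subunit, was at 233 FPKM in fetal HSC, 183 in late EMP and 234 in early EMP, so late EMP was lowest. Of the membrane anchors, Sdhc was at 55.5 FPKM in fetal HSC, 86.1 in late EMP and 74.6 in early EMP, and Sdhd at 143 in fetal HSC, 133 in late EMP and 149 in early EMP. Sdhc differed most, by -0.62 on the log2 scale for fetal HSC over late EMP. The medians of the 4 were -0.06, -0.03 and 0.02 for fetal HSC over late EMP, fetal HSC over early EMP and late over early EMP.

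Complex III, the cytochrome bc1 complex, had 7 of 8 subunits higher in fetal HSC than in early EMP, with a log2 median of 0.08. Under the other scalings 6 or 7 were higher. Of the 3009 features with a symbol and a mean of at least 20 FPKM, 1630 were higher. Uqcrfs1, Uqcrh and Uqcrc2 were higher by only 0.03 to 0.05. Uqcr11, a small accessory subunit, was at 364 FPKM in fetal HSC, 229.6 in late EMP and 250.1 in early EMP. Uqcrc1, a core subunit of the matrix side, was at 256 FPKM in fetal HSC, 186 in late EMP and 194 in early EMP. Uqcrq, another small subunit and the lowest of the complex, was at 56.6 FPKM in fetal HSC, 40.2 in late EMP and 41.0 in early EMP. In these 3 genes fetal HSC stood above the EMP libraries, which lay close to each other. Uqcrfs1, the Rieske iron-sulphur protein, was instead highest in late EMP at 58.2 FPKM, with 42.6 in fetal HSC and 41.8 in early EMP, and Uqcrb was likewise highest in late EMP at 227 FPKM, with 191 in fetal HSC and 178 in early EMP. Uqcr10 was the only subunit lower in fetal HSC than in early EMP, at 168 against 196 FPKM. Summed over the 8 genes, complex III stood at 1316 FPKM in fetal HSC, 1142 in late EMP and 1129 in early EMP.

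Complex IV, cytochrome c oxidase, has several subunits with tissue forms, and the main forms differed by less than 1.5-fold between libraries. Its summed level was 2266 FPKM in fetal HSC, 2277 in late EMP and 2240.1 in early EMP, and the medians of its 14 genes above the filter were 0.07, 0.05 and 0.03. Cox6b1 was at 439 FPKM in fetal HSC, 407 in late EMP and 455 in early EMP. Cox4i1, a subunit that takes part in regulation by ATP, was at 344 FPKM in fetal HSC, 353 in late EMP and 300.1 in early EMP. Cox6a1 was at 239 FPKM in fetal HSC, 293 in late EMP and 217 in early EMP, and made up at least 99.7% of the Cox6a pair in each library. The X-linked Cox7b was at 51.8 FPKM in fetal HSC, 54.1 in late EMP and 39.6 in early EMP.

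The tissue forms Cox6b2 and Cox7a1 were lowest in the early EMP library. Cox6b2, known as the testis form of Cox6b1, was at 23.4 FPKM in fetal HSC, 17.0 in late EMP and 6.44 in early EMP. It was higher in fetal HSC than in early EMP by 1.72 on the log2 scale and higher in late than in early EMP by 1.27. Its share of the Cox6b pair was 5.07% in fetal HSC, 4.01% in late EMP and 1.39% in early EMP, and the summed pair differed little, at 462, 424 and 462 FPKM. Cox7a1, the heart and muscle form of the Cox7a family, was at 5.13 FPKM in fetal HSC, 4.21 in late EMP and 1.30 in early EMP, with log2 differences of 1.41 for fetal HSC and 1.18 for late EMP over early EMP. Its share of the family was 3.21% in fetal HSC, 3.12% in late EMP and 0.846% in early EMP. Cox7a2 was at 63.0, 61.0 and 67.7 FPKM in the same libraries, and Cox7a2l, a relative that takes part in joining complexes III and IV, at 91.7, 69.8 and 84.6 FPKM. Neither Cox6b2 nor Cox7a1 shares a 50-base word with another annotated gene.

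Marker levels of other cells moved with these forms in part. The muscle markers Acta1 and Ckm were under 1 FPKM in every library, at 0.22, 0.05 and 0.25 FPKM and at 0.60, 0.96 and 0.46 FPKM in fetal HSC, late EMP and early EMP. The 7 of 9 muscle markers with a row summed to 14.4 FPKM in fetal HSC, 9.20 in late EMP and 8.62 in early EMP. That is the order of Cox6b2 and Cox7a1, but it came from Tnni2 alone (7.80, 1.23 and 0.21 FPKM in the same libraries). Without Tnni2 the muscle sum ran in the reverse order. Myl1 (0.60, 0.38 and listed at 0) ran in the order of Cox6b2 and Cox7a1 too. Mylpf, at 5.14, 6.49 and 6.64 FPKM, and Myh4, listed at 0, 0.07 and 1.06 FPKM, ran in the reverse order. Melanocyte markers, 4 of 4 with a row, summed to 39.7, 13.4 and 1.25 FPKM in the same libraries. They so followed the order of Cox6b2 and Cox7a1, with Mlana listed at 0 in early EMP. The erythroid sum ran the other way, at 13.7, 15.5 and 186 FPKM. The part of these cells in the result was not tested.

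Complex V, the ATP synthase, leaned the opposite way from complex I, with the late EMP library highest for 9 of 15 subunits (60%), where it was highest for 35.7% of all features with a symbol and for 33.7% of those with a mean of at least 20 FPKM. With other scalings it was highest for 5 to 10 of the 15, against 27.9% to 40.3% of all features with a symbol. With median-of-ratios factors it was highest for 5 and lowest for 6, so the lean did not hold under that scaling. Without the 50 most abundant genes it was highest for 8 and lowest for 6. The medians were -0.05 for fetal HSC over late EMP, 0.05 for fetal HSC over early EMP and 0.09 for late over early EMP. The summed level was 2477 FPKM in fetal HSC, 2583 in late EMP and 2358 in early EMP.

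The F1 part, which holds the catalytic sites, gave 5 of these 9 genes. All 5 of its genes were higher in late than in early EMP, with a log2 median of 0.25, and all 5 were lower in fetal HSC than in late EMP, with a median of -0.31; under the other scalings 4 or 5 were higher in late than in early EMP, and 3 to 5 lower in fetal HSC than in late EMP. Atp5b, the catalytic beta subunit, was at 218 FPKM in fetal HSC, 320.3 in late EMP and 219 in early EMP. Atp5a1 (alpha) was at 113 FPKM in fetal HSC, 124 in late EMP and 117 in early EMP, and so was far more even than its partner beta. Atp5c1 (gamma, the central shaft) was at 155 FPKM in fetal HSC, 192 in late EMP and 162 in early EMP, and Atp5d (delta) at 71.6, 92.1 and 72.2 FPKM in the same libraries. Atp5e (epsilon) was even, between 141 and 144 FPKM. Fetal HSC and early EMP differed by at most 0.07 on the log2 scale in these 5 genes. Of the 3009 features with a symbol and a mean of at least 20 FPKM, 1710 were higher in late than in early EMP. Of the same 3009, 1542 were lower in fetal HSC than in late EMP.

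The peripheral stalk was mixed, with 3 of 4 genes higher in late than in early EMP (median 0.23) but 2 of 4 lower in fetal HSC than in late EMP, and 2 of 3 membrane accessory subunits were lower in late than in early EMP. Atp5f1, the stalk subunit b, was at 446 FPKM in fetal HSC, 461 in late EMP and 332 in early EMP, so it was lowest in early EMP. Atp5o, which ties the stalk to F1, was at 187 FPKM in fetal HSC, 137 in late EMP and 180.0 in early EMP, so it was lowest in late EMP. Atp5h, another stalk subunit, was highest in late EMP at 212 FPKM, with 163 in fetal HSC and 155 in early EMP. Atp5l (subunit g, which helps the enzyme form dimers) was at 244 FPKM in fetal HSC, 193 in late EMP and 312 in early EMP, the largest difference in the complex between late and early EMP (-0.69). Atp5k (subunit e), the lowest member, stayed between 39.7 and 41.1 FPKM. Atp5h and Atp5l are among the 5 members with most words shared with copies.

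Subunit c forms the membrane ring that turns with the proton flow, and 3 genes encode the same mature peptide behind different import sequences. Atp5g1 was at 187 FPKM in fetal HSC, 173 in late EMP and 165 in early EMP. Atp5g2 was at 49.0 FPKM in fetal HSC, 80.0 in late EMP and 55.3 in early EMP, and Atp5g3 at 56.6, 61.4 and 48.8 FPKM in the same libraries. Atp5g1 was the main source in each library, with 63.9% of the summed FPKM in fetal HSC, 55.1% in late EMP and 61.3% in early EMP, while the share of Atp5g2 was 16.8%, 25.4% and 20.6%. The summed ring level was 292 FPKM in fetal HSC, 314 in late EMP and 269 in early EMP. The coding parts of that peptide differ between the genes: over the last 228 coding bases Atp5g1 and Atp5g2 had 85.1% of bases the same, Atp5g1 and Atp5g3 79.8%, and Atp5g2 and Atp5g3 78.5%, with identical runs of at most 21 bases. The first 90 of these bases are given, 5′ to 3′ on the coding strand (GENCODE transcripts), with bases that differ from Atp5g1 in capitals, 14 in Atp5g2 and 19 in Atp5g3.
Atp5g1: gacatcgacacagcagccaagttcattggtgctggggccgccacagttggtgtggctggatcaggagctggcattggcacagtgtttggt
Atp5g2: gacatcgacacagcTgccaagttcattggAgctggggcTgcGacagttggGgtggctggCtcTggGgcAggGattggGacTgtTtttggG
Atp5g3: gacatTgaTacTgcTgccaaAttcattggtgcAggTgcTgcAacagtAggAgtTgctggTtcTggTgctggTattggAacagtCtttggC
The genes lie on chromosomes 11, 15 and 2. Of the words of Atp5g2, however, 87.4% occur in the annotated transcript Gm10175, so its level may be less sure than those of the other 2 genes. How far the shared words changed it was not tested.

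The balance between complexes does not depend on how the libraries are scaled, since each ratio is taken within a library. Summed complex I over summed complex V was 1.501 in fetal HSC, 1.28 in late EMP and 1.56 in early EMP, so the late EMP library had the least complex I per complex V. Complex III over complex V was 0.53 in fetal HSC, 0.44 in late EMP and 0.48 in early EMP. The ratio of complex IV was 0.91, 0.88 and 0.95, and that of complex II 0.20, 0.19 and 0.22, in the same libraries. All 4 ratios were lowest in late EMP, but they share the complex V sum, which was highest there (2583 FPKM). They are therefore not separate observations. Summed complex IV was itself highest in late EMP, at 2277 FPKM against 2266 in fetal HSC and 2240.1 in early EMP.

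**Figure D4:**
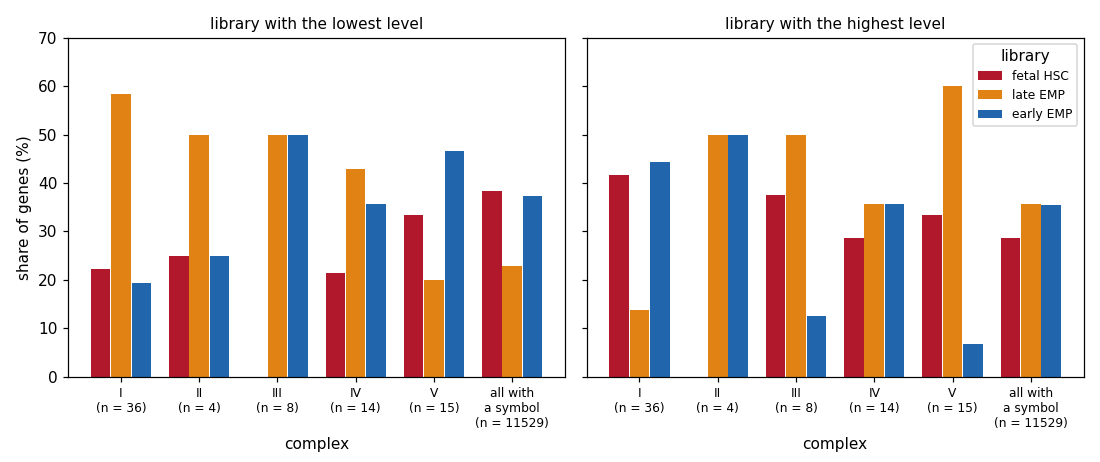
Share of the genes of each complex (in percent) for which the fetal HSC, late EMP or early EMP library had the lowest (left) or the highest (right) level, beside all 11529 features with a symbol. In complex I the late EMP library is lowest for 58.3% of genes; in complex V it is highest for 60%.

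Other genes that serve the chain were read as lists. The 13 subunits encoded in mitochondrial DNA were not analysed here. Of 7 measured subunits and regulators outside the symbol rule, 0 were 2-fold apart in any comparison. Of all features, 11.7% were that far apart between fetal HSC and late EMP. The share was 26% between fetal HSC and early EMP and 19.5% between late and early EMP. Among features with a symbol and a mean of at least 20 FPKM it was 2.29%, 7.38% and 5.02% in the same order of comparisons. Cyc1, the cytochrome c1 of complex III, was at 50.4 FPKM in fetal HSC, 74.2 in late EMP and 47.4 in early EMP, the order seen for Uqcrfs1. Atpif1, which inhibits the ATP synthase when the proton gradient is lost, was at 120.3 FPKM in fetal HSC, 100.2 in late EMP and 78.2 in early EMP. Of 18 genes of the electron carriers and their entry points, 0 were at least 2-fold higher and 2 lower in fetal HSC than in late EMP (Coq4 and Pdss1, both of ubiquinone synthesis and under 5 FPKM). In each comparison with early EMP 1 was higher and 1 lower: Dhodh and Adck3 for fetal HSC, and Coq4 and Adck3 for late EMP. The list thus had 11.1% 2-fold apart in each comparison, none above the share of all features. Among features with a symbol the shares were 8.09%, 16.7% and 11.8%, the first of them below 11.1%. Cycs, cytochrome c, was at 34.6 FPKM in fetal HSC, 29.0 in late EMP and 19.7 in early EMP. Etfb, part of the flavoprotein that feeds electrons from fatty acid oxidation, was at 335 FPKM in fetal HSC, 335 in late EMP and 382 in early EMP. Dhodh, the pyrimidine synthesis enzyme that reduces ubiquinone, was at 8.62 FPKM in fetal HSC, 7.24 in late EMP and 3.23 in early EMP, and Adck3, needed to make ubiquinone, at 0.82, 2.19 and 5.73 FPKM in the same libraries. These 2 ran in opposite orders across the libraries.

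Among 31 assembly factors of complexes II to V, 0 were at least 2-fold higher and 1 (Sco2) lower in fetal HSC than in late EMP, 0 were apart between fetal HSC and early EMP, and 1 was higher and 1 lower in late than in early EMP. These were 3.23%, 0% and 6.45% of the list, against 11.7%, 26% and 19.5% of all features. Among features with a symbol and a mean of at least 20 FPKM the shares were 2.29%, 7.38% and 5.02%. The pair in the last comparison was Cox18 and Sdhaf1, an assembly factor of complex II. Cox18 was at 3.23 FPKM in fetal HSC, 5.91 in late EMP and 2.37 in early EMP. Sdhaf1 was at 20.2, 13.6 and 30.5 FPKM in the same libraries. Cox14, which helps build complex IV, was the most abundant at 116 FPKM in fetal HSC, 101 in late EMP and 113 in early EMP, and Cox17, a copper chaperone of complex IV, followed at 97.4, 75.6 and 94.2 FPKM in the same libraries.

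**Figure D5:**
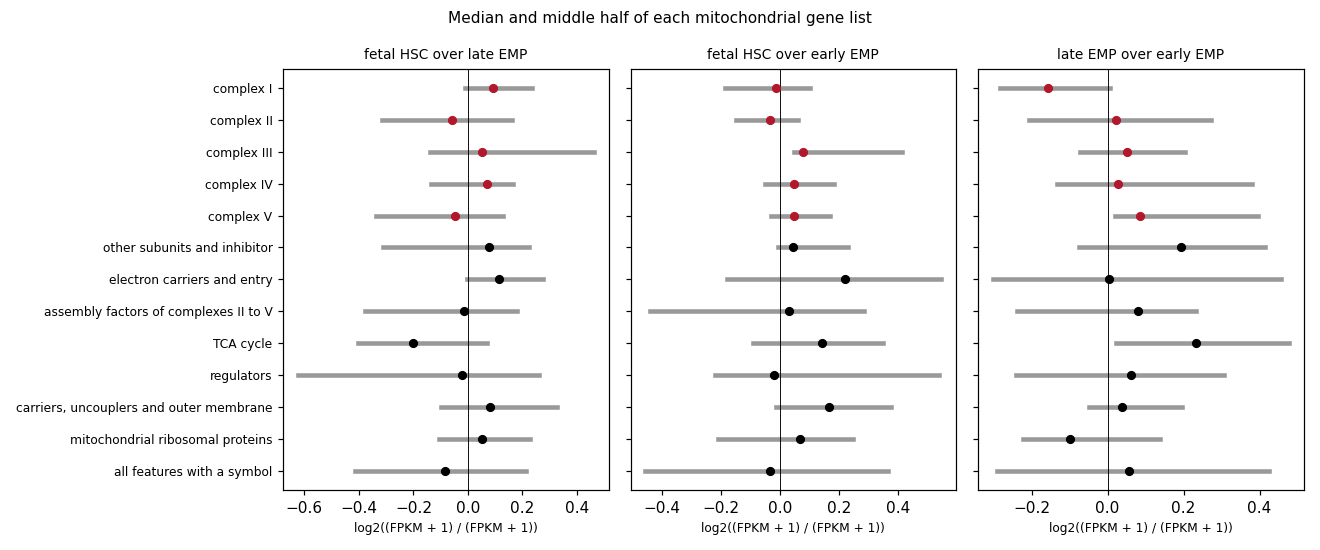
Median (point) and middle 50% (bar) of the log2 differences of each complex (red) and of other mitochondrial gene lists (black), with all features with a symbol at the bottom. The medians of the 5 complexes lie between -0.16 and 0.09, and complex I is lowest among the complexes for late over early EMP.

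Of 18 regulators of nuclear respiratory genes and mitochondrial DNA, 11.1% were at least 2-fold apart between fetal HSC and late EMP. The share was 11.1% between fetal HSC and early EMP and 16.7% between late and early EMP. None was above the shares of all features (11.7%, 26% and 19.5%). Features with a symbol had 8.09%, 16.7% and 11.8%, so the list was above them in the first and last comparison. Hif1a, the oxygen-regulated factor, was the most abundant at 66.0 FPKM in fetal HSC, 80.8 in late EMP and 78.1 in early EMP. Of the 18, 2 (Peo1 and Polrmt, of mitochondrial DNA copying and transcription) were at least 2-fold lower in fetal HSC than in late EMP. Myc was higher and Tfb2m lower in fetal HSC than in early EMP, and in late than in early EMP Myc and Peo1 were higher and Tfb2m lower. Nrf1, a transcription factor of many respiratory genes, was at 13.8 FPKM in fetal HSC, 14.3 in late EMP and 8.06 in early EMP. Myc was at 5.26 FPKM in fetal HSC, 10.6 in late EMP and 1.59 in early EMP. Tfb2m, which mitochondrial transcription needs, was at 1.74 FPKM in fetal HSC, 4.36 in late EMP and 9.78 in early EMP. Nrf1 and Myc were thus lowest in early EMP, and Tfb2m was highest there.

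NRF1, the product of Nrf1, is known to bind the start regions of many respiratory genes, and its letters and those of 3 other factors were looked for there. RefSeq (GRCm38.p6) gave 80 windows for 74 member genes, each from 250 bases before to 50 after a gene start. The NRF1 letters CGCATGCG, which read the same on both strands, occurred in 11 of the 80 (13.8%), against 3.92% of the 11771 windows of features with a symbol at 1 FPKM or more and 1.87% of all 32851 windows. On either strand, the YY1 letters AAGATGGC occurred in 12 member windows (15%) against 4.64% of the windows of features with a symbol at 1 FPKM or more. Both windows of Atp5sl, which overlap, are among these matches. The ETS letters CCGGAAGT occurred in 5 member windows (6.25%) against 8.45%. The ERR letters TCAAGGTCA occurred in only 2 member windows (2.5%) against 0.27%. Of the 11 NRF1 matches, the 6 that lie upstream of the start together with 16 bases on each side inside the window are given with those bases, 5′ to 3′ toward the gene, with the match in capitals, because they show where this shared sequence sits in genes of several complexes.
Atp5g2: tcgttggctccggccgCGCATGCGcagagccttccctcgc
Atp5j: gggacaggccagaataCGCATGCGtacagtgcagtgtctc
Atp5k: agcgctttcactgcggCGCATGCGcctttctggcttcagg
Cox6a1: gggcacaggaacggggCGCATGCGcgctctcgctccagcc
Ndufa11: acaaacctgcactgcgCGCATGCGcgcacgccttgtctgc
Ndufaf4: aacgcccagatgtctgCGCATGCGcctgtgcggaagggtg
The match begins 41 bases before the start of Atp5g2 (chr15:102671065-102671104, minus strand), 147 before an inner start of Atp5j (chr16:84835100-84835139, minus), 49 before that of Atp5k (chr5:108434425-108434464, minus) and 161 before that of Cox6a1 (chr5:115349096-115349135, minus). It begins 59 bases before the start of Ndufa11 (chr17:56717687-56717726, plus) and 112 before that of Ndufaf4 (chr4:24897955-24897994, plus). The match of Atp5j lies inside the gene as RefSeq places it (chr16:84827871-84835857). The window at the outer start of Atp5j (chr16:84835576-84835875) held no match. A match describes letters only; binding was not measured. The 6 genes did not share 1 order of libraries: Atp5g2, Cox6a1, Ndufa11 and Ndufaf4 were highest in late EMP, while Atp5j and Atp5k were highest in fetal HSC. Atp5l, whose match is not shown, was highest in early EMP.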

How the data were processed

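Total RNA was sequenced on an Illumina HiSeq, per the labels. Gene FPKM values of all 3 libraries were deposited by the authors in 1 table, per the file headers. Its column headed as a control was matched to the early EMP library by its description. Bowtie2, RSEM, mm10 and GRCm38 are named, without versions, per the submitters' processing notes. FPKM is a share, so abundant mast cell proteases affect every other value, and near-identical transcripts can exchange reads. Depth is unknown, and low values gave no stable estimate of it, so no counting interval is given.

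From these values, log2((FPKM + 1)/(FPKM + 1)) was computed for features at 1 FPKM or more in at least 1 library, 14412 of 20677. Members at least 2-fold and 1.5-fold apart were counted beside all features. There is 1 library per group, so no test was made. Shared 50-base words and coding sequences come from GENCODE M21 transcripts, gene positions and start regions from RefSeq GRCm38.p6. All 87 members matched both. Positions are 1-based. The steps were tested on simulated data.

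Processing alternatives comprised pseudocounts of 0.1 FPKM and 5 FPKM, dropping the filter or setting it at 5 FPKM, 4 rescalings (to the same sum, by median-of-ratios, without the 50 most abundant genes, and over rows with a symbol only) and the 1.5-fold level. Members, lists and naming rule were chosen with earlier results of these data known. The rule named isoform families, complex II, the 2 highest and the lowest member of each complex, the 3 highest and lowest differences per comparison at 5 FPKM or more, members 2-fold apart, and X-linked members. From other lists it named the 2 most abundant genes and those 2-fold apart, not all of which are given. Further members (core complex I, F1, stalk and those of other roles), and low genes of other lists, were named after their values were seen, to fill out each role. Python 3.11.15, numpy 2.4.6, pandas 2.3.3, biopython 1.88 and matplotlib 3.10.9 were used. One member is counted in the summaries, but its own values are not reported here.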

Additional observations from a re-analysis of the deposited data

How the results depend on the processing

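No paired analysis was possible because each origin has 1 library and no test was made. The number of members at least 2-fold apart was 0 between fetal HSC and late EMP, 4 between fetal HSC and early EMP and 3 between late and early EMP. With a pseudocount of 0.1 FPKM the first became 1 (Ndufaf5), and with 5 FPKM the second became 2 and the last 1. At 1.5-fold the first became 6 and the last 6. Median-of-ratios factors shifted fetal HSC over late EMP by 0.13 on the log2 scale. The medians of that comparison then became 0.18 over members, 0.23 in complex I, 0.076 in complex II, 0.18 in complex III, 0.20 in complex IV and 0.085 in complex V. Of 15 complex medians, 6 changed sign under it, 2 without the 50 most abundant genes, and 1 under each of the other 2 rescalings. Medians this close to 0 have no firm sign.

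After the data were seen, 3 alternatives were added. Summing Ndufs5 with its copy reversed its difference to -0.98 (fetal HSC over early EMP) and -1.16 (late over early EMP); the part of read assignment was not tested. Without the 22 members that share 10% or more of their 50-base words, the complex IV median for late over early EMP became 0.19. Leaving out Ndufs5 changed no complex median by 0.1 or more. No library could be left out, and the unknown depth sets no limit that could be stated for low members such as Ndufaf4, Ndufaf5 and Cox7a1.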

Other observations

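Of 18 measured TCA cycle genes, 0 were 2-fold apart between fetal HSC and late EMP or between fetal HSC and early EMP. Idh3b alone was 2-fold higher in late than in early EMP, at 39.6 FPKM in fetal HSC, 52.6 in late EMP and 19.4 in early EMP. Of all features, 11.7%, 26% and 19.5% were 2-fold apart in these comparisons. Among features with a symbol and a mean of at least 20 FPKM, 2.29%, 7.38% and 5.02% were. The medians of the TCA cycle genes were -0.20 for fetal HSC over late EMP, 0.14 for fetal HSC over early EMP and 0.23 for late over early EMP. By these medians late EMP stood highest, as for the F1 part of complex V. All features with a symbol had medians of -0.08, -0.03 and 0.06. Median-of-ratios factors shifted fetal HSC over late EMP upward by 0.13 on the log2 scale. Mdh2, malate dehydrogenase, the most abundant, was at 209.6 FPKM in fetal HSC, 166 in late EMP and 166 in early EMP. Slc25a5, an ADP/ATP carrier, was at 797 FPKM in fetal HSC, 605 in late EMP and 619 in early EMP, above each of the 87 respiratory chain members in each library.

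The proteins of the mitochondrial ribosome, which translates the subunits encoded in mitochondrial DNA, had medians of 0.05, 0.07 and -0.10 over 76 genes for fetal HSC over late EMP, fetal HSC over early EMP and late over early EMP. Mrpl34 was at 18.4 FPKM in fetal HSC, 23.5 in late EMP and 8.51 in early EMP, and Mrps2 at 3.17, 7.94 and 2.86 FPKM in the same libraries. These were the 2 genes of that list at least 2-fold higher in late than in early EMP, and 0 were lower. In that comparison 2.63% of the list was thus 2-fold apart, against 19.5% of all features and 11.8% of those with a symbol. Of those with a symbol and a mean of at least 20 FPKM, 5.02% were.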
